A study of Mus musculus with 8 samples.

Results

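Peritoneal macrophages of Fra-2 knockout mice were compared with those of their floxed controls on 4 single-colour Agilent arrays, 2 per group, out of 8 arrays in the series. The controls were wild-type Fra-2lox/lox mice, and the knockouts were Fra-2lox/lox LysMCre-/+ mice, so the floxed allele was shared by all 4 arrays and Cre was carried by the knockouts alone. Mice were 8 weeks old on a mixed 129/C57Bl6 background, the controls were littermates, and the mice were male or female with no sex given per array. Cells were washed from the peritoneal cavity, plated overnight, and RNA was taken from those that adhered; these 4 arrays carry no thioglycollate label, whereas the 4 arrays of the Fra-1 line do. Those 4, from 2 wild-type Fra-1lox/lox mice and 2 Fra-1lox/lox MxCre-/+ mice, serve here for the estimate of spread and for 1 contrast at the end. A probe was a member of the comparison when it was well above background on both arrays of at least 1 group, which 28619 of 55681 probes were. Levels are log2 signals relative to the 75th percentile of the array, so a level of 0 is the 75th percentile of all probes and a difference of 1 is a doubling. Reduced to 1 probe per gene, the comparison held 21413 features, of which 21406 could be tested and 13513 (63.1%) carried a gene symbol.

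Fra-2, encoded by Fosl2, belongs to the Fos family of basic leucine zipper proteins. It pairs with a Jun protein to form the transcription factor AP-1, which binds the motif TGANTCA. Fra-2 is known for its roles in bone cells, fibrosis and inflammation, and in macrophages AP-1 acts beside lineage factors at inflammatory and differentiation genes. LysMCre is expressed from the Lyz2 locus, which is active in macrophages, monocytes and neutrophils and replaces the coding part of that Lyz2 copy, so a knockout made with it is limited to cells that switch on lysozyme and carries fewer working Lyz2 copies.

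Macrophage markers were present: all 10 on the array were tested, and the sum of the 9 with a value on every array (linear signal over the 75th percentile) was 1233.2 and 1393.8 on the control arrays against 1190.5 and 1138.8 on the knockout arrays. Genes of other peritoneal cells were partly detected. Of 12 fibroblast genes 8 were tested, among them Col1a1, Col3a1 and Dcn, while Lum, Pdgfra, Dpt and Mfap5 were below background on all 4 arrays, and the summed signal was 6.62 and 11.2 on the control arrays against 10.0 and 10.5 on the knockout arrays. Of 7 endothelial genes 4 were tested, Kdr and Pecam1 among them, and Cdh5, Tek and Emcn were below background (8.43 to 11.1 in sum, groups overlapping). Of 10 mesothelial genes 6 were tested (Wt1, Msln, Krt8, Krt18, Krt19 and Slpi) and Upk3b, Lrrn4, Bnc1 and Igfbp5 were below background. Those 6 were all higher in sign in knockouts, by 0.09 to 0.48, 2 of them without overlap (14.5% of all features were), and the summed signal was 715.6 and 554.1 against 695.0 and 706.5. The part of these cells in the results below was not tested. B cell (10 of 10 genes on the array, summed signal 42.6 to 89.4), mast cell (9 genes, 48.8 to 144.1) and T and NK cell genes (10 genes, 19.1 to 25.1) were present with overlapping groups. Among the mast cell genes Cpa3 read 5.58 and 4.01 in controls and 3.89 and 5.10 in knockouts, well above the 75th percentile. Neutrophil genes had sums that did not overlap, with a summed signal of 20.7 and 26.5 in controls and 57.9 and 48.2 in knockouts over 12 genes. Xist was above background and Ddx3y, Kdm5d and Eif2s3y of the Y chromosome were below it on all 4 arrays. Knockout 1 was the dimmest array: 47.7% of its probes were well above background, against 53.9% to 57.6% on the others. The lowest level flagged well above background on it was −3.58, against −4.50 to −4.61. Each of the 2 slides held 1 control and 1 knockout (control 1 and knockout 1 on slide 1), so differences could also be read within a slide. Across features, levels correlated at 0.990 between the controls, 0.984 between the knockouts, and 0.977 to 0.988 across groups. In bulk RNA, fewer cells of a type and less RNA per cell cannot be told apart.

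Fosl2 itself had 2 probes above background, and they differed in opposite directions. The brighter probe read 5.51 and 5.57 in controls and 6.43 and 7.14 in the knockouts (difference 1.24, SE 0.24, limma adjusted p = 0.185). The dimmer probe read −2.59 and −2.64 in controls and −3.96 and −3.82 in the knockouts (difference −1.27, SE 0.30, adjusted p = 0.27 over all probes), and only 1 knockout array was above background for it. The groups did not overlap for either probe. The sources used here do not place either probe inside or outside the floxed exons, so neither of them checks the genotype. Lyz2, whose locus drives Cre, was lower in knockouts without passing the test (8.93 and 9.41 against 8.80 and 8.79, difference −0.37, SE 0.23, adjusted p = 0.726).

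Next to Fosl2 lay a gene with a difference of another order. Plb1, a membrane phospholipase and the next protein-coding gene after Fosl2 on chromosome 5, on the same strand, was not above background in controls (−6.71 and −6.67) and was above it on both knockout arrays (−2.90 and −2.63). Plb1 was at least 3.55-fold higher in knockouts (fitted difference 3.93, SE 0.42, limma adjusted p = 0.0735). Another Plb1 probe, listed under a different transcript, was below background on all 4 arrays (−6.73 and −6.68 against −5.69 and −6.60), and the sources used here do not say which part of the gene either probe reads. Among the other 29 of the 30 tested genes nearest to Fosl2, 15 on each side, differences ran from −0.47 (Rbks) to 0.31 (Prr14l), and Babam2, the neighbour on the other side, was at −0.08. A bound of this kind sets the brighter group's mean against the dimmer group's readings. Each reading under the lowest level flagged well above background on its array was first raised to that level. The level is taken over all probes of the array, and a probe can lie above it without being flagged. "At least" therefore holds only as far as that level applies to the probe.

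**Figure D1:**
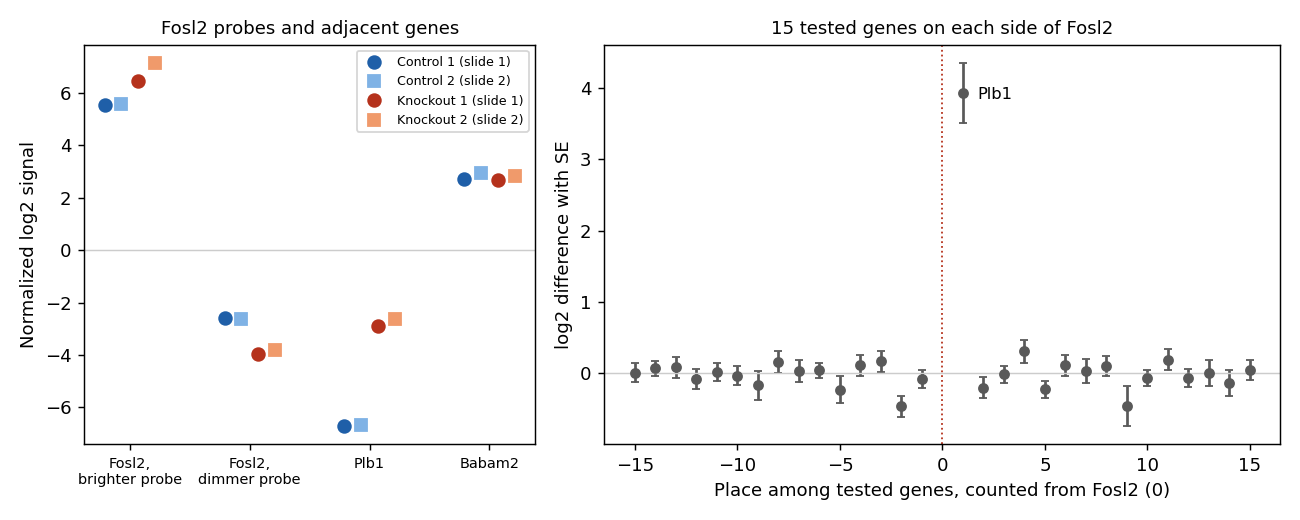
Left, normalized log2 signal of the Fosl2 probes, Plb1 and Babam2 on each array (circles slide 1, squares slide 2; blue controls, red and orange knockouts). Right, log2 difference with its SE for the 15 tested genes on each side of Fosl2 in chromosomal order, with Plb1 at 3.93 and the others between −0.47 and 0.31.

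The bases before the start of Fosl2 and Plb1 are shown because these adjacent genes stand apart from their surroundings, with matches to the AP-1 motif TGANTCA in capitals. The windows are the 250 bases upstream of the RefSeq start in GRCm38.p6, 5′ to 3′ on the gene's strand. Fosl2 (chr5:32136222-32136471, plus strand) had no match, and Plb1 (chr5:32238834-32239083, plus strand) had 1 match, its first base 200 bases before the start, in 1 of 2 annotated windows.
Fosl2: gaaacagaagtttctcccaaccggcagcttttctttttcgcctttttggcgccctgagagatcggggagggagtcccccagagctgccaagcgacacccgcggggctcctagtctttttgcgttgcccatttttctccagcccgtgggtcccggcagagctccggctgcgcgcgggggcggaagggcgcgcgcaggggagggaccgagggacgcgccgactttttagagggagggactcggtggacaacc
Plb1: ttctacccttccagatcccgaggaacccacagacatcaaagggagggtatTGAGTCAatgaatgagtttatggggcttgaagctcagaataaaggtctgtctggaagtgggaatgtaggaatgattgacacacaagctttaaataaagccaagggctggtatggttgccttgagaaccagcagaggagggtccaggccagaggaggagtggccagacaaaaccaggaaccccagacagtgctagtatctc
The motif, which reads the same on both strands apart from its central base, occurred in 6.75% of 32851 such windows. Of 10817 tested genes with a window, 5.92% held it, against 7.40% of the 662 genes lower at an unadjusted p under 0.05 and 8.88% of the 349 higher. A match is a string of letters and says nothing of binding.

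Over the whole comparison no feature passed an adjusted p of 0.05 in limma (0 of 21406, 0.0%). At an unadjusted p under 0.05 there were 1945 features (9.09%), where that threshold alone would give 1070.3. Of these 632 (2.95%) were higher in knockouts and 1313 (6.13%) were lower. The higher count was 1358 without the filter on dim probes, 403 without control 2 and 1088 without knockout 2. The filter kept 2363 features through the controls alone and 191 through the knockouts alone, which favours lower values. Arrays did not overlap between groups for 3096 features that were higher (14.5%) and 4424 that were lower (20.7%), 35.1% together. In sign alone, 55.6% of features were lower. The median difference was −0.03 and its SD over features 0.45, and 970 features differed by at least 1, 246 higher and 724 lower. The smallest adjusted p was 0.0576, for a transcript listed as NM_021304 with no matched symbol: it read −0.96 and −1.13 in controls and 1.20 and 1.52 in the knockouts (difference 2.41). Under a looser adjusted p of 0.1 lay 62 features, 14 higher and 48 lower.

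Other settings called some features: 63 with a prior that follows brightness, 25 after quantile normalization, 11 after normexp background correction, 5 with probes averaged, 1 with a filter on all 4 arrays, and 32 without knockout 2, 10 without knockout 1 and 5 without control 1. The gene values that follow are therefore descriptions with their SE, and "higher" or "lower" is a statement about these 4 arrays.

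The dimmest features had the largest share of lower values, but the filter, which kept more features through the controls alone than through the knockouts alone, favours this. In 5 classes of mean level, the share lower at an unadjusted p under 0.05 was 4.70% at a level of 6 or more (1362 features), 4.08% from 3 to 6 (3926), 4.20% from 0 to 3 (6148), 6.05% from −3 to 0 (6846) and 13.3% under −3 (3124). The median difference was −0.05, −0.01, −0.01, −0.02 and −0.19 in the same order, and the SD was 0.34, 0.30, 0.36, 0.44 and 0.71. In the dimmest class the median was −0.30 within slide 1, which holds knockout 1, and −0.10 within slide 2. The part of knockout 1's lower detection in this was not tested.

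**Figure D2:**
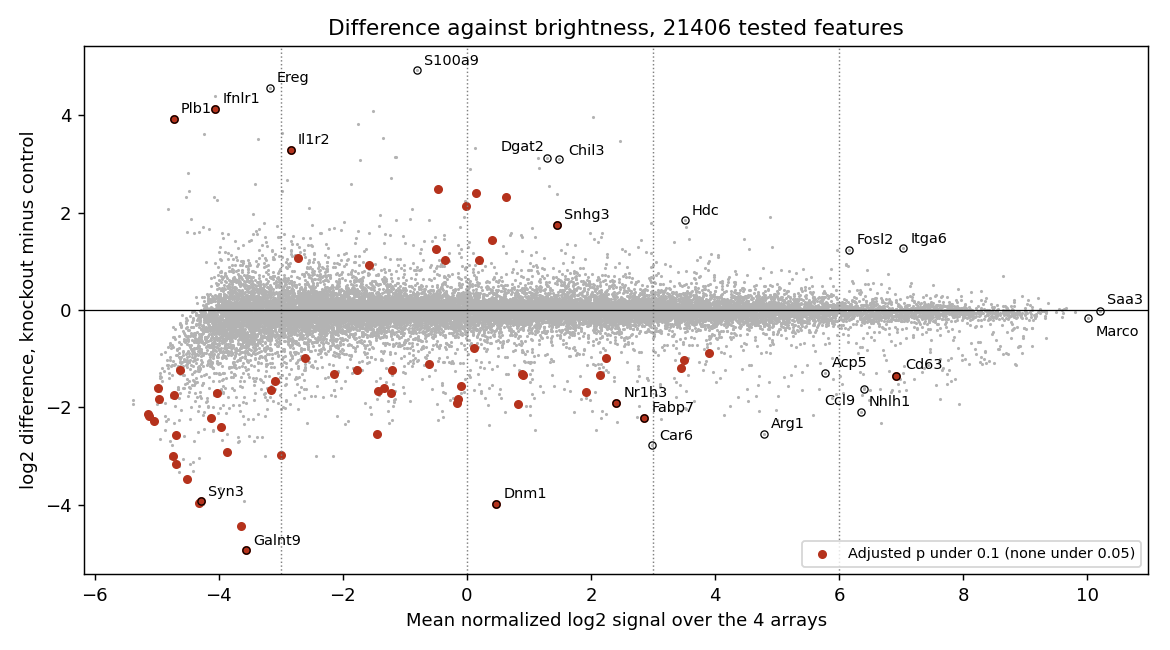
Log2 difference (knockout minus control) against mean normalized log2 signal for 21406 features, with dotted lines at the class limits and the 62 features under an adjusted p of 0.1 in red. The cloud is narrow at the bright end, where Saa3 and Marco sit near 0, and widens and leans downward under a level of −3.

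The brightest probes with a gene name barely differed. Saa3, an acute phase apolipoprotein of macrophages, read 10.15 and 10.28 in controls and 10.25 and 10.14 in knockouts. The scavenger receptor Marco read 10.06 and 10.13 against 9.86 and 10.02, and Apoe, the lipid carrier secreted by macrophages, 9.81 and 9.82 against 9.81 and 9.76. Differences were −0.02, −0.15 and −0.03, each smaller than its SE. That SE also takes in the spread of the Fra-1 line arrays, where Marco read from 2.72 to 4.72. On the arrays compared here, Marco and Apoe were lower in knockouts without overlap, as 20.7% of all features were. Among the 15 brightest named genes, which also included Fth1, Kctd14, Actb, Tpt1, Slc10a1, Slpi, Fau, Elk1, Exosc2 and Aldoa, differences other than that of Sp110 lay between −0.15 and 0.15. Sp110, a nuclear body protein, was at −0.58 (SE 0.28), and its other 2 probes stood at −0.04 and 0.01. The other probe of Slc10a1 was below background on all 4 arrays, and that of Elk1 had a control mean of −2.45. Kctd14 had control means of −4.34 and −1.16 by its other probes. The high levels of Slc10a1, Elk1 and Kctd14 were thus read by 1 probe per gene.

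At a level of 6 or more, 5 named genes led on the higher side. Itga6, the integrin alpha chain that binds laminin, read 6.67 and 6.13 in controls and 8.33 and 7.01 in knockouts (difference 1.27, SE 0.42, adjusted p = 0.45). Coro1a, an actin-binding protein of leukocytes, read 5.77 and 5.52 against 6.72 and 6.43 (0.93, SE 0.16, adjusted p = 0.154), and Vim, the intermediate filament of macrophages, 5.65 and 5.74 against 6.56 and 6.63 (0.90, SE 0.14, adjusted p = 0.127). For Coro1a and Vim the gap between groups was several times the distance within them. Slc2a6, a hexose transporter, read 5.76 and 6.33 against 6.66 and 7.06 (0.81). The fifth was the brighter Fosl2 probe.

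The bright genes at the lower end shared a pattern across slides. Nhlh1 read 6.61 and 8.19 in controls and 4.19 and 6.44 in knockouts, Sema6d 6.74 and 8.07 against 4.71 and 6.40, and Tmprss3, Slc1a4 and Arhgef15 had differences of −1.75, −1.68 and −1.65. In each, the slide 2 array exceeded the slide 1 array of its own group by more than 1, and control 1 stood close to knockout 2. Npcd, Cd300a, Armcx3, Elavl4 and Zfp133-ps, the most strongly lower genes from 3 to 6 (−2.05 to −2.26), and Nwd2 and Med13 below them had the same order of arrays. Of 200 features whose slide 2 arrays exceeded slide 1 by over 1 in both groups, 157 were lower in knockouts within both slides and 107 had groups that did not overlap on the lower side, against 3 on the higher (20.7% and 14.5% of all features). Their medians were −0.13 and 1.50 in controls and −1.24 and 0.33 in knockouts. Among 96 features with the reverse slide difference none had non-overlapping groups on the lower side and 18 had on the higher. The other Armcx3 probe, at a control level of 1.41, differed by 0.02. The other probes of Nhlh1 and Npcd lay near the detection limit, where a fall of this size could not be seen. Those of Sema6d, Tmprss3, Elavl4 and Nwd2 were below background on all 4 arrays, controls included. The high levels of these genes were thus read by 1 probe per gene.

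From 3 to 6, the higher side was led by genes whose values were closer within groups. Hdc, the enzyme that makes histamine, read 3.00 and 2.18 in controls and 4.30 and 4.58 in knockouts (difference 1.85, SE 0.34, adjusted p = 0.166). The mast cell genes Cpa3, Cma1, Mcpt4 and Tpsb2, which mast cells make beside Hdc, had overlapping groups: over 9 mast cell genes the summed signal was 144.1 and 48.8 on the control arrays against 62.2 and 123.4 on the knockout arrays. Ifitm6, an interferon-induced membrane protein of myeloid cells, read 4.12 and 3.36 against 4.96 and 5.41 (1.45), Plbd1, a phospholipase B-like protein of granules, 4.03 and 3.83 against 5.20 and 5.16 (1.25, SE 0.19, adjusted p = 0.121), and Oscp1 and Ramp3 differed by 1.45 and 1.40.

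Around the 75th percentile, differences of named genes reached −3.98 and 3.12. Dnm1, a dynamin of endocytic vesicles, read 2.90 and 2.01 in controls and −1.69 and −1.35 in knockouts (−3.98, SE 0.33, adjusted p = 0.0633), but its other probe, at a control level of 0.43, differed by 0.04. Car6, a secreted carbonic anhydrase, read 4.57 and 4.19 against 1.16 and 2.05 (−2.78, SE 0.47, adjusted p = 0.148). Fabp7, a fatty acid carrier, read 3.94 and 3.99 against 1.61 and 1.90 (−2.21, SE 0.26, adjusted p = 0.0839), with groups far apart relative to their spread. Capn5, a calpain protease, was lower by less but as evenly (1.64 and 1.44 against 0.32 and 0.14, −1.31, adjusted p = 0.0735). On the higher side, Snhg3, a small nucleolar RNA host gene, read 0.52 and 0.63 against 2.56 and 2.09 (1.75, SE 0.18, adjusted p = 0.0735), Hepacam2 −0.99 and −1.16 against 1.25 and 0.87 (2.13, SE 0.22, adjusted p = 0.0735), and Dgat2, which makes triglyceride, −0.73 and 0.21 against 1.41 and 4.31 (3.12, SE 0.88, adjusted p = 0.352). Dgat2 was uneven between the knockouts, Snhg3 and Hepacam2 were not.

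Below the 75th percentile, several genes were above background in 1 group only. Il1r2, the decoy receptor that captures interleukin-1, was not above background in controls (−4.48 and −4.49) and read −1.19 and −1.20 in knockouts. By these readings themselves it was 9.77-fold higher (fitted difference 3.29, SE 0.34, limma adjusted p = 0.0735). Ereg, an epidermal growth factor receptor ligand, read −6.35 and −4.56 against −1.79 and 0.00, at least 12.9-fold higher (adjusted p = 0.151). Ifnlr1, a chain of the lambda interferon receptor (at least 6.07-fold, adjusted p = 0.0735), Slc6a17 (at least 6.65-fold, adjusted p = 0.163) and Fbp1 of gluconeogenesis (at least 4.45-fold, adjusted p = 0.128) were likewise above background in the knockouts only. In the opposite direction Galnt9 read −1.62 and −0.57 in controls and −5.64 and −6.42 in knockouts, at least 7.69-fold lower (adjusted p = 0.0633), and Syn3 was at least 3.28-fold lower (adjusted p = 0.0735). The other Syn3 probe was below background on all 4 arrays, controls included. Olfr348, Ttll11 and Ptn had bounds of 3.20-, 2.44- and 2.10-fold (adjusted p = 0.109, 0.268 and 0.28). Stbd1, a glycogen-binding protein, remained above background throughout and read 0.14 and −0.49 against −2.96 and −2.46 (−2.54, SE 0.28, adjusted p = 0.0735). Cela1, Glb1l2 and Serpinb6e, near the detection limit, had fitted differences of −1.82, −1.60 and −1.63. Of the 21406 features tested, 538 were above background on both controls and neither knockout, against 18 the other way. The knockout arrays had fewer probes well above background (47.7% and 53.9%, against 57.6% and 54.4% on the control arrays). The part of this lower detection in these counts was not tested.

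Cholesterol is built from acetyl-CoA through mevalonate, isoprenoids and squalene to lanosterol and then through demethylation and double-bond changes, under the control of the transcription factor SREBP-2 (Srebf2). All 24 tested members of this group were lower in knockouts in sign (55.6% of all features were), a count already known for this list. Of these, 19 had groups that did not overlap (20.7% of all features did on the lower side), 15 had an unadjusted p under 0.05 (6.13% of all) and none passed the adjusted threshold. The median difference was −0.44, against −0.03 over all features. It was −0.62 within slide 1 and −0.32 within slide 2, and knockout 1 was the lower knockout in 22 of 24 genes.

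The size of the difference varied along the pathway, and position in it was not tested. Fdps, which makes farnesyl diphosphate, read 5.20 and 5.32 in controls and 4.15 and 4.64 in knockouts (−0.87, SE 0.19, 1.82-fold, adjusted p = 0.239). Sqle, the squalene epoxidase, read 3.93 and 4.06 against 3.04 and 3.50 (−0.73, SE 0.18), with the neighbouring steps Fdft1, Lss and Cyp51 at −0.59, −0.63 and −0.65. Hsd17b7, a late demethylation enzyme, read 0.52 and 0.60 against −0.37 and −0.02 (−0.76), Tm7sf2 differed by −0.58 and Sc5d by −0.42. At the entry, Acat2 (−0.42), Hmgcs1 (−0.50, with control 2 missing) and Mvk (−0.44) were close to the group's median, and Idi1, the isomerase that prepares isoprenoid units, read 4.01 and 3.88 against 3.26 and 3.50 (−0.57). Mvd, Ebp and Dhcr7, at −0.13, −0.09 and −0.08, were near 0 although they belong to the same chain. Srebf2 was at −0.53 and its brake Insig1 at −0.18.

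**Figure D3:**
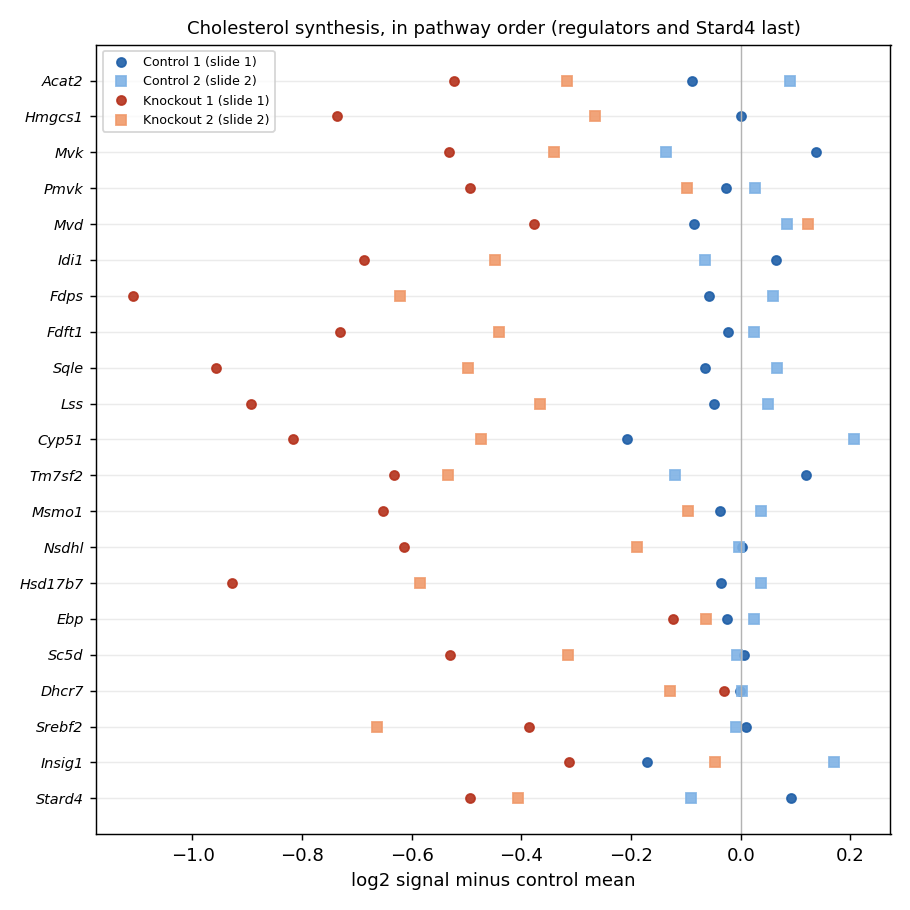
Log2 signal of each array minus the control mean for 21 of the 24 tested genes of the group, in pathway order with regulators and the sterol carrier Stard4 at the bottom (Hmgcs1 has 1 control value). Knockout 1 (red circles) lies left of the controls in most rows, knockout 2 (orange squares) lies between, and Ebp and Dhcr7 stay near 0.

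Promoters of these genes are compared because its members shared a direction. The CCAAT box, the recognition letters of the factor NF-Y that works beside SREBP-2, was searched as CCAAT on either strand. It was found upstream in 16 of 17 group members with a RefSeq window (94.1%), against 40.2% of tested genes and 33.8% of all windows. The 16 included Mvd, Ebp, Dhcr7 and Insig1, which differed by −0.13, −0.09, −0.08 and −0.18, while Fdps, Sqle and Fdft1 were not among them. Whether the box goes with the difference was not tested. The sterol element, searched as TCACNCCAC on either strand, was found in 1 of the same 17, Hmgcs1 (5.88%), against 1.27% of tested genes. For CCAAT the share was 42.3% among features lower at an unadjusted p under 0.05, and among those higher 44.1%. Hsd17b7 (chr1:169969206-169969455, minus strand) had 3 matches, 165, 73 and 12 bases before the start, and Idi1 (chr13:8885356-8885605, plus strand) had 2, at 45 and 14; the capitals mark the box, which reads ATTGG where it lies on the other strand.
Hsd17b7: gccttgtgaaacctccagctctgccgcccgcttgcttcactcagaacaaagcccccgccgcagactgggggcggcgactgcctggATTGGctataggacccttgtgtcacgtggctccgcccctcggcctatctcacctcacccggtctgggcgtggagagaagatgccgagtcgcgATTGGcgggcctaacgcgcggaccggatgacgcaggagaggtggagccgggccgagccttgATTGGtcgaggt
Idi1: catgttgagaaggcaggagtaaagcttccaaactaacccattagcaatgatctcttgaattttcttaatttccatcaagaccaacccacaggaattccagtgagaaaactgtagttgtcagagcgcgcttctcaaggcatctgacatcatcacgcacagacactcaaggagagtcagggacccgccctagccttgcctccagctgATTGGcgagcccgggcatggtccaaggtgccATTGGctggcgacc

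Other lipid genes split. Nr1h3, the oxysterol receptor LXR alpha, read 3.17 and 3.56 in controls and 1.20 and 1.72 in knockouts (−1.90, SE 0.23, 3.74-fold, adjusted p = 0.0856). Its targets went different ways: Pltp, a phospholipid transfer protein (3.88 and 3.05 against 2.46 and 1.74, −1.36), Lpl, lipoprotein lipase (5.88 and 6.19 against 5.22 and 5.18, −0.84), and Abca1 (−0.49) were lower, Apoe, Abcg1 and Lpcat3 were within 0.06 of 0, and Apoc2 and Mylip were at 0.76 and 0.58. Over 12 members of the LXR group the median was −0.04, with 6 non-overlapping on the lower and 3 on the higher side, against 20.7% and 14.5% of all features. The fatty acid desaturase Fads1 was evenly lower (1.74 ± 0.05 against 1.02 ± 0.02, mean and SD of 2 arrays, −0.73, SE 0.10, adjusted p = 0.107), while Fasn (−0.18) and Scd1 (−0.27) lay within their SE or close to it and Acaca was at 0.49. Cd36, the receptor for oxidized lipoproteins and fatty acids, read 3.50 and 3.23 against 2.39 and 1.91 (−1.21, SE 0.22, adjusted p = 0.163).

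Genes that macrophages use to fuse and to resorb bone formed the group with the most negative median among lists with more than 10 members. Of 15 tested members 11 were lower in sign (55.6% of all features were), 10 without overlap (20.7%) and 8 at an unadjusted p under 0.05 (6.13%). On the higher side 1 member had such a p, and the median was −0.90. Acp5, tartrate-resistant acid phosphatase, read 6.28 and 6.55 in controls and 4.91 and 5.34 in knockouts (−1.29, SE 0.19, 2.44-fold, adjusted p = 0.107). Atp6v0d2, a proton pump subunit needed for fusion, read −0.59 ± 0.08 against −2.26 ± 0.37 (mean and SD of 2 arrays, −1.67, SE 0.22, adjusted p = 0.0932). The fusion proteins Dcstamp (2.86 and 3.35 against 1.43 and 1.88, −1.45) and Ocstamp (0.29 and 1.04 against −0.81 and −0.33, −1.24) were lower on both knockout arrays. The lysosomal and exosome tetraspanin Cd63, abundant in such cells, read 7.73 and 7.48 against 6.16 and 6.33 (−1.36, SE 0.18, 2.57-fold, adjusted p = 0.0943).

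Secreted and surface members followed. The gelatinase Mmp9 read 2.49 and 3.16 against 0.60 and 1.46 (−1.80), the collagenase Ctsk 0.04 and 0.89 against −0.32 and −0.54 (−0.90), and the lipid-sensing receptor Trem2 6.35 and 5.75 against 5.12 and 4.42 (−1.28, SE 0.31, adjusted p = 0.308). Itgb3 was lower by its brighter probe (−2.26) and at 0.40 by the other. Tnfrsf11a, the RANK receptor, read 2.99 and 2.80 against 2.77 and 2.00 (−0.51), lower without overlap. Its target factor Nfatc1 was at 0.24 and the Trem2 adaptor Tyrobp at 0.08 (8.77 and 8.69 against 8.86 and 8.76). Of the acid-secretion machinery used by every lysosome, Tcirg1 and Clcn7 were at −0.10 and 0.00 and Ostm1 at 0.42. Over 30 lysosome and cathepsin genes the median was 0.00. The median of the osteoclast group was −0.36 within slide 1 and −1.21 within slide 2, and −0.61 without control 2.

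Chemokines of the CC and CXC families were mostly lower in sign, 22 of 24, with a median of −0.46; 8 had groups without overlap on the lower side and 4 an unadjusted p under 0.05. Over all features these shares were 55.6%, 20.7% and 6.13%. Ccl9, which recruits myeloid cells and osteoclast precursors, read 7.06 and 7.35 against 5.20 and 5.97 (−1.63, SE 0.34, 3.08-fold, adjusted p = 0.213). Ccl7 read 0.29 and 0.19 against −0.54 and −0.59 (−0.80) and its monocyte-attracting relative Ccl2 2.76 and 2.99 against 2.22 and 2.37 (−0.58). Platelet factor 4, Pf4, read 9.08 in control 1 and 8.43 and 8.26 in knockouts (−0.74), and the B cell attractant Cxcl13 8.18 in control 2 and 6.54 and 7.29 in knockouts (−1.27); for each the other control spot was an outlier and was left out. Neutrophil attractants varied widely within groups: Cxcl2 was at −0.33 (SE 0.46) and Cxcl1 at 0.32 (SE 0.61). The cytokines Tnf and Il1b were at 0.00 and 0.18 (SE 0.60), whereas Il6 read 2.33 and 3.01 against 3.40 and 5.37 (1.71, SE 0.74, adjusted p = 0.576) and Osm 0.10 and 0.00 against 0.91 and 1.52 (1.16, SE 0.32, adjusted p = 0.34).

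Known markers separate the resident macrophage types of the peritoneal cavity: large macrophages depend on Gata6, and small ones resemble recent monocyte descendants. Of 10 tested small macrophage and monocyte genes, 7 were lower in sign (55.6% of all features were) and 6 did not overlap on the lower side (20.7%), with a median of −0.57. The folate receptor Folr2 read 1.76 and 1.15 in controls and 0.08 and −0.76 in knockouts (−1.80, SE 0.34, adjusted p = 0.177), the mannose receptor Mrc1 2.79 and 3.00 against 2.15 and 2.26 (−0.69, SE 0.13, adjusted p = 0.185) and Cd226 −1.39 and −1.86 against −2.57 and −2.35 (−0.84). Retnla was lower with a wide spread (6.08 and 4.37 against 3.41 and 3.12). The monocyte receptor Ccr2 and the factor Irf4, at −0.31 and 0.30, did not follow.

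Large macrophage genes leaned the other way. Of 14 tested, 11 were higher in sign (55.6% of all features were lower), 7 without overlap, against 14.5% of all features. On the higher side 3 had an unadjusted p under 0.05 (2.95% of all features), and the median was 0.46. Ltbp1, which binds latent transforming growth factor beta, read 3.52 and 3.28 against 4.33 and 4.20 (0.86, SE 0.13, adjusted p = 0.118), the tetraspanin Cd9 5.52 and 5.53 against 6.20 and 6.16 (0.66, SE 0.15, adjusted p = 0.266) and Gata6 2.04 and 1.52 against 3.03 and 2.41 (0.94, SE 0.35, adjusted p = 0.518). F5 and Selp differed by 1.28 and 1.08, less than the distance between the controls, and Alox15 by 0.94. Timd4 (−0.25) and Icam2 (0.21) were close to 0, and Cxcl13 was lower. Summed over the 11 small macrophage genes the signal was 432.8 and 402.1 on the control arrays against 381.6 and 328.7 on the knockout arrays, and over 13 large macrophage genes 1968.2 and 2012.0 against 2244.8 and 2156.8. Only genes with a value on every array were summed. Of 15 large macrophage genes on the array 13 entered the sum, and Cxcl13 was among those left out. That bright gene went the other way (8.18 in control 2 against 6.54 and 7.29 in knockouts). Saa3, the brightest gene in the sum, differed by −0.02. The part of a different mix of these cells in the group differences was not tested.

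**Figure D4:**
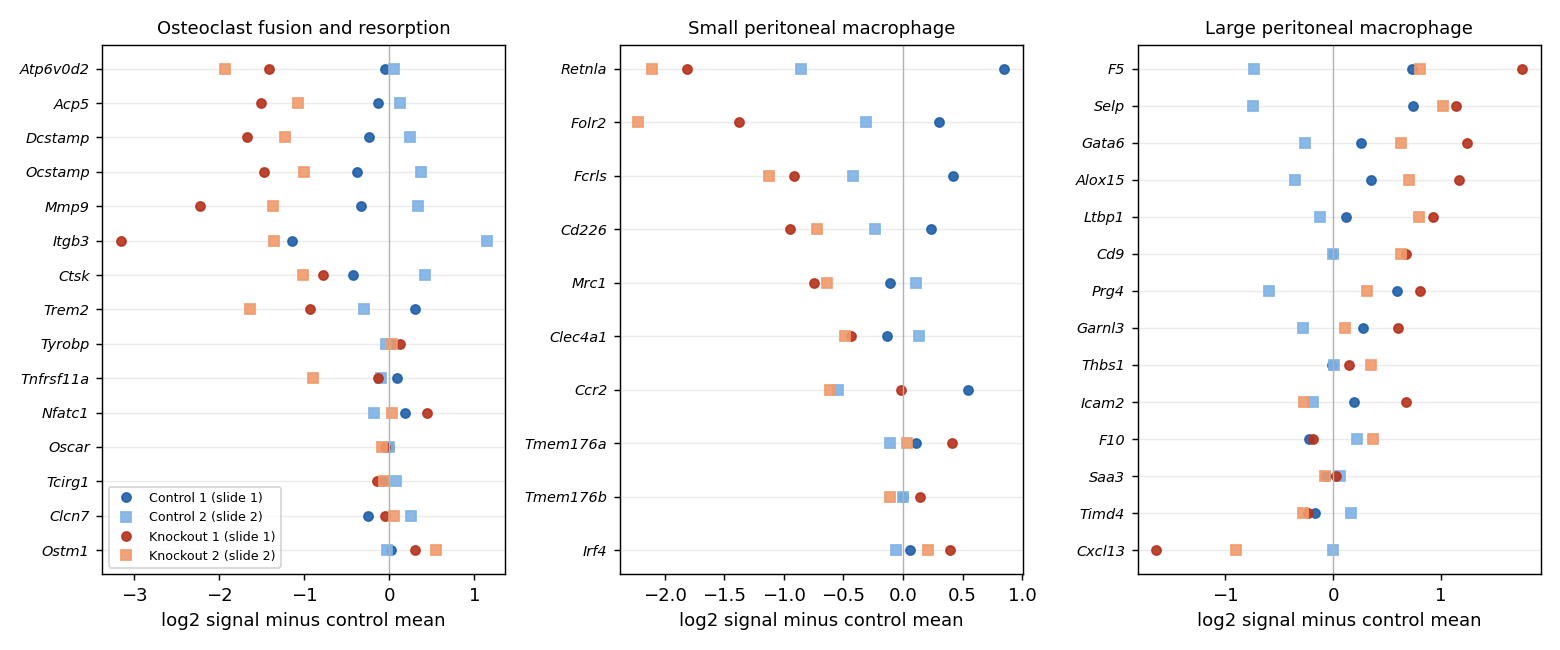
Log2 signal of each array minus the control mean for osteoclast genes (left), small (middle) and large (right) peritoneal macrophage markers; Cxcl13 has 1 control value. Atp6v0d2, Acp5, Dcstamp and Folr2 lie left of the controls on both knockout arrays, and Gata6, Ltbp1 and Cd9 to their right.

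The windows of Ccl9, Trem2 and Folr2 are shown for comparison with Plb1, as the members with the largest difference among those of the chemokine, osteoclast and small macrophage groups that hold the AP-1 letters, with TGANTCA in capitals: Ccl9 (chr11:83578637-83578886, minus strand) at 53 bases before the start, Trem2 (chr17:48346151-48346400, plus strand) at 9, and Folr2 (chr7:101845332-101845581, minus strand) at 74. The Folr2 match lay in 1 of 2 annotated windows.
Ccl9: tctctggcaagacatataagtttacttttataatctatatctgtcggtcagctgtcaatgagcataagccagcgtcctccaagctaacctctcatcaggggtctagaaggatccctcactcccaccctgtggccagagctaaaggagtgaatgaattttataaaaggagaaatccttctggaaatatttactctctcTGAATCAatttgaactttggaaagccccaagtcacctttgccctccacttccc
Trem2: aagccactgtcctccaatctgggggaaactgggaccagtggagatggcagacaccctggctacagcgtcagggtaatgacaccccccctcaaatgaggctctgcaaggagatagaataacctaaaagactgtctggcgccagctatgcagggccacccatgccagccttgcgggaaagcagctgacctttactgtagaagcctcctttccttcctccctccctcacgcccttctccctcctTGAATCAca
Folr2: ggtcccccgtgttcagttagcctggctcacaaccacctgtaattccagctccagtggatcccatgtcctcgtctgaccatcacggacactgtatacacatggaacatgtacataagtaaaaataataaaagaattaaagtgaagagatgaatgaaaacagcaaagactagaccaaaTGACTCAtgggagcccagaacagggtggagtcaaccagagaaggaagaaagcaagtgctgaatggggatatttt
With a window in RefSeq, 1 of 8 osteoclast genes, 3 of 17 chemokines (with Cxcl10 and Ppbp), 1 of 9 small macrophage genes, 1 of 9 large macrophage genes (Selp), 2 of 17 cholesterol genes (Dhcr7 and Msmo1) and 1 of 13 immediate early genes (Csrnp1) held a match, against 5.92% of tested genes.

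Of 20 genes of arginine use and alternative activation 14 were lower in sign (55.6% of all features were), 8 without overlap (20.7%) and 5 at an unadjusted p under 0.05 (6.13%), with a median of −0.37. Arg1, arginase, read 5.96 and 6.16 in controls and 3.00 and 4.05 in knockouts (−2.54, SE 1.05, adjusted p = 0.55), and Nos2, the competing nitric oxide synthase, −0.53 and −0.17 against −2.20 and −1.09 (−1.29, SE 0.41, adjusted p = 0.417). The haemoglobin scavenger receptor Cd163 (0.37 and 1.29 against −0.88 and −0.09, −1.32) and Stab1 (4.00 and 4.50 against 3.60 and 3.38, −0.76) had non-overlapping groups, and Mgl2 was at −0.07. Chil3, a chitinase-like protein of alternatively activated macrophages and of granulocyte precursors, was the member higher without overlap: −0.30 and 0.16 against 3.56 and 2.51 (3.11, SE 0.48, 8.63-fold, adjusted p = 0.119).

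Several genes of neutrophils and their precursors were also higher. S100a9, a calcium-binding protein of neutrophils, read −2.40 and −4.14 in controls and 3.09 and 0.23 in knockouts (4.93, SE 1.09, adjusted p = 0.24), but its partner S100a8 differed by 0.56 (SE 0.31; 3.54 and 4.14 against 4.09 and 4.71). Mpo, myeloperoxidase, read 0.49 and −1.08 against 4.39 and 0.86 (2.92, SE 1.11), Ctsg, cathepsin G, −0.83 and −1.93 against 2.93 and 0.07, and the precursor gene Ms4a3 −3.71 and −4.77 against 0.04 and −3.19. In S100a9, Mpo, Ctsg and Ms4a3 the level on knockout 1 was far above that on knockout 2. Lcn2, a siderophore-binding protein, and the acute phase glycoproteins Orm1 and Orm2 were higher on knockout 2 than on knockout 1 (Lcn2 −0.17 and 0.70 against 1.86 and 3.44). The neutrophil markers Elane, Camp and Mmp8 had overlapping groups (0.31, 0.45 and 0.56). The 8 tested neutrophil markers do not include Ctsg, Ms4a3, Orm1 or Orm2. Of the 8, 7 were higher in sign and 3 did not overlap (14.5% of all features on that side). Retnlg was the lower one, at −1.06. The median of the 8 was 0.56, 0.88 and 0.99 within slides 1 and 2, and up to 1.01 with an array left out, and Stfa1 was below background. Haemoglobin followed knockout 1 alone: Hba-a1 read −1.88 and −3.59 in controls and 2.85 and −2.05 in knockouts.

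Immediate early genes, which respond within minutes to stimulation, tended to be higher, and AP-1 and related factors did so less clearly. Among 19 tested AP-1 and related factors 11 were higher in sign (55.6% of all features were lower). Of the 19, 7 were higher without overlap and 2 lower (14.5% and 20.7% of all features). The median was 0.16, with 0.098 and 0.082 within slides 1 and 2, 0.029 without control 1 and 0.313 without control 2. Fosl2 itself was counted by its brighter probe and had the largest difference of the 19 (1.24). Jun read 3.45 and 3.40 against 4.15 and 3.78 (0.55, SE 0.16, adjusted p = 0.384) and Fos 1.91 and 2.24 against 2.42 and 2.63 (0.45, SE 0.18, adjusted p = 0.534), while Junb (0.30), Jund (0.16) and Fosb (0.40) stayed closer to 0. The closest relative Fosl1 read −2.99 and −2.52 against −1.40 and −2.85 (0.64, SE 0.53), so the groups overlapped. Of 17 immediate early genes 10 were higher without overlap (14.5% of all features), 8 at an unadjusted p under 0.05 (2.95%), with a median of 0.40. Egr1 read 1.18 and 1.35 against 1.91 and 1.91 (0.64, SE 0.15, adjusted p = 0.266), Klf4 1.09 and 1.03 against 1.86 and 1.59 (0.66, SE 0.14, adjusted p = 0.216) and the kinase phosphatase Dusp1 1.49 and 1.30 against 2.49 and 2.02 (0.86, SE 0.23, adjusted p = 0.326). Nr4a1, Nr4a2 and Csrnp1 were at 0.81, 0.59 and 0.70. Egr2 went the other way (3.26 and 3.80 against 2.53 and 3.00, −0.77), and Myc and Zfp36 were at 0.00 and −0.09.

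**Figure D5:**
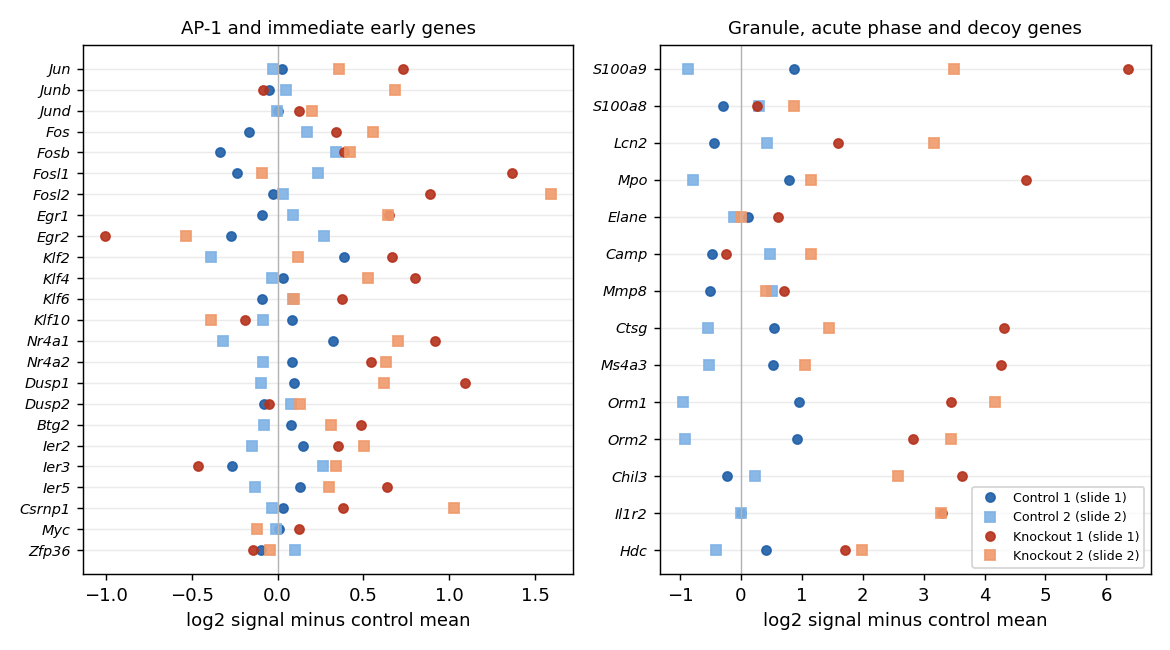
Log2 signal of each array minus the control mean for AP-1 and immediate early genes (left) and for granule, acute phase and decoy genes (right). Egr1, Klf4, Nr4a1 and Dusp1 lie right of the controls on both knockout arrays, S100a9, Mpo and Ctsg lie farther right on knockout 1, and Il1r2 is at nearly the same place on both knockout arrays.

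Large parts of macrophage biology showed no such shift. Of 26 ribosomal protein genes, 18 glycolysis genes and 32 interferon-stimulated genes none had an unadjusted p under 0.05, with medians of −0.03, −0.16 and −0.09. The respiratory chain was lower in sign in 30 of 34 genes (55.6% of all features) but by a median of −0.11. Toll-like receptors and their adaptors (20 genes, median 0.06), NF-kappaB subunits and inhibitors (15 genes, −0.02), the inflammasome (12 genes, −0.02), MHC class II presentation (15 genes, −0.12), cell cycle (27 genes, −0.08) and the endoplasmic reticulum stress group (21 genes, −0.02) had at most 2 members in either direction at an unadjusted p under 0.05. Over all features 2.95% were higher and 6.13% lower at that threshold. MHC class II had the most, 2 higher and 1 lower. Coagulation, whose proteins peritoneal macrophages make, had larger shares at that threshold, 3 of 15 members on each side, with a median of 0.15. On the lower side was F7 (4.17 and 3.87 against 3.04 and 2.94, −1.03, SE 0.14, limma adjusted p = 0.0943). Aldh1a2, which makes retinoic acid, was lower (1.78 and 1.46 against 0.37 and 0.74, −1.07, SE 0.20, adjusted p = 0.176).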

How the data were processed

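RNA of 4 arrays of the Fra-2 line was compared, with the 4 arrays of the Fra-1 line entering the estimate of spread. The deposited values are 1-colour Cy3 intensities, background-subtracted on a linear scale by Feature Extraction 11.5.1.1, with flags of 0 or 1 for background and outliers, per the file headers, which name the design build mm9. The deposited series table held log2 values, used as an alternative; it matched the arrays' log2 signals after centring each probe on its median over the 8 arrays, and its column medians ran from −0.0474 to 0.0326. Other steps by the authors are not given in the sources used here.

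Outlier and control spots were left out, spots of a probe averaged, and log2 intensity set against the array's 75th percentile. Probes were named by accession through RefSeq (GRCm38.p6), which the array's mm9 annotation preceded, and the brightest kept probe stood for a gene. Features without a value on an array, 111 in all, were fitted on the remaining arrays. The mean of each of the 4 groups was fitted with limma 3.58.1 (R 4.3.3; residual degrees of freedom 4, prior 2.15), with Benjamini-Hochberg adjustment over 21406 features and calls at 0.05. The series' design text counts as many mice as there are arrays, and 2 arrays per group limit the precision. Figures were drawn with matplotlib 3.10.9, and tables were made with pandas 2.3.3 and numpy 2.4.6 under Python 3.11.15. On simulated data with 200 changed features of 21134, log2 changes of 1, 2 and 4 were found in 37.0%, 75.2% and 91.0% of cases, and 4.15% of calls were false.

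The members and the 45 gene lists (782 entries, 767 on the array) were chosen with earlier results of these data known. Named were Fosl2, Fosl1, Lyz2, Arg1 and Nos2, the 15 brightest genes, up to 5 genes per direction and brightness class with the largest difference (unadjusted p under 0.05, groups not overlapping, and above background on all 4 arrays in the classes from 0 upward), the 10 genes of smallest p and up to 4 per list by p, leaving out clone and model names. Some genes that these rules or the lists hold are not reported here. Further list members, neighbours of Fosl2 and genes of the closing paragraphs were named with their values seen. Alternatives were quantile normalization, normexp with an offset of 50 on median signals, the series table, no filter, a filter on all 4 arrays, a common floor, averaging a gene's probes, slide as a term, differences within a slide, the 4 Fra-2 line arrays alone, a trended prior and leaving out each array.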

Additional observations from a re-analysis of the deposited data

How the results depend on the processing

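Calls at an adjusted p under 0.05 in limma were 0 in the reported fit, with the series table, without the filter, with a common floor, with a slide term and with only the 4 Fra-2 line arrays. They were 25 after quantile normalization, 11 with normexp, 1 with the filter on all 4 arrays, 5 with the mean of probes and 63 with the trended prior, and 0 to 32 when single arrays were left out (32 without knockout 2, 10 without knockout 1, 5 without control 1). The cause was not tested. Features higher at an unadjusted p under 0.05 numbered 632, 1358 without the filter and 403 (without control 2) to 1088 (without knockout 2) with an array left out. The median of the cholesterol group was −0.62 within slide 1, −0.32 within slide 2 and −0.62 to −0.33 with an array left out. The osteoclast median was −0.68 with normexp, −0.51 without the filter, −0.36 and −1.21 within slides 1 and 2, and −0.998 to −0.609 with an array left out. The AP-1 median ran from 0.029 to 0.313 and the immediate early median from 0.31 to 0.56 with an array left out. The neutrophil median was 0.88 and 0.99 within slides 1 and 2 and 0.56 to 1.01 with an array left out.

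The dimmer Fosl2 probe passed the threshold with the common floor (−0.96, limma adjusted p = 0.0443), and the mean of both Fosl2 probes was −0.016. Some signs turned. Fosl1 was −0.089 to 1.36, Fasn −0.375 to 0.0102, Junb −0.084 to 0.685 and Elane −0.00048 to 0.616 when single arrays were left out. Within slide 1 Junb was −0.033 and Kdr −0.064, and within slide 2 Mmp8 was −0.092, Fosl1 −0.32, Fasn 0.093, Pecam1 0.059 and Krt8 −0.11. A change of sign in a value smaller than its SE was not counted as a turn. The labels give no replicate numbers that pair a control with a knockout; each slide held 1 of each, and the fit with slide as a term made 0 calls. Levels below −3.58 could not be told from background on knockout 1.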

Other observations

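A few lower genes fall outside the groups described above. The transforming growth factor beta-induced matrix protein Tgfbi read 6.55 and 6.95 on the control arrays against 5.69 and 6.05 on the knockout arrays (−0.87, SE 0.22, limma adjusted p = 0.293). Among antioxidant genes the glutathione transferase Gsta3 read 1.98 and 2.72 against 0.85 and 0.92 (−1.46, SE 0.38) and haem oxygenase Hmox1 6.37 and 6.86 against 5.83 and 6.07 (−0.67, SE 0.19), while the median of the 19 antioxidant genes was −0.09. The integrin Itgax, a dendritic cell and macrophage marker, read 4.06 and 4.81 against 2.77 and 3.63 (−1.24, SE 0.35, adjusted p = 0.347). The macrophage elastase Mmp12 was at −1.07 and its other probe at −1.87.

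The difference in the Fra-2 line was set against that in the Fra-1 line in the same model. No feature passed an adjusted p of 0.05 for this contrast in limma, 1967 had an unadjusted p under 0.05, and the smallest adjusted p was 0.159, for NM_021304. In the Fra-1 line Nr1h3 differed by 0.02, Atp6v0d2 by −0.03, Acp5 by −0.40 and Il1r2 by −0.41. The deleted gene, the Cre driver (LysMCre or MxCre), the line and the thioglycollate label cannot be told apart.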
